A study of Mus musculus with 63 samples.

Results

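The miR-26 family and the miR-103 and miR-107 family are microRNAs that are cut from introns of protein-coding genes. The members described here were chosen by name: mmu-miR-26a-5p, mmu-miR-26b-5p, mmu-miR-26b-3p, mmu-miR-103-3p and mmu-miR-107-3p, with every locus of each (the prefix for mouse is dropped below). These 5 mature names account for 7 of the 2110 counted loci, and all 7 passed the filter on low counts in every fit. They were followed in endothelial cells (ECs, sorted on CD31), macrophages (Macs, sorted on F4/80), proximal tubular cells (PT cells, sorted on binding of the lectin LTL) and PDGFR-β+ stromal cells (PDGFRB in the figures).

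All cells came from kidneys of male C57BL/6 mice aged 8 to 12 weeks, 16 mice in all, with no transgene or gene deletion in any group. The 4 groups were sham-operated mice, mice with unilateral ureteric obstruction for 2 days (UUO-2), mice with the same obstruction for 7 days (UUO-7), and mice in which a 7-day obstruction was reversed and the kidney left to repair for 2 weeks (R-UUO). The 4 cell types were sorted from the same mice, 4 mice to a group. The authors had removed 1 outlying PDGFR-β+ library at UUO-7, so that group holds 3 libraries and the series 63. According to the study's methods, the mice sequenced were those closest to their group's mean expression of the tubular injury gene Havcr1, so the spread between mice may understate that of the model.

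A microRNA guides the silencing complex to messenger RNAs mainly through its seed, bases 2 to 8 counted from the 5′ end. The miR-26 hairpins lie in introns of the CTDSP genes, which encode small phosphatases that act on the C-terminal domain of RNA polymerase II, and the miR-103 and miR-107 hairpins lie in introns of the pantothenate kinase genes, whose products catalyse the first step of coenzyme A synthesis. A microRNA in an intron can be made from the transcript of its host, so its host's transcription is one of the things that can set its level. Both families are widely expressed, and miR-103 and miR-107 are known for targeting Dicer and regulators of insulin signalling. Host transcripts were not measured in these libraries.

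The mature sequences, from RefSeq for GRCm38.p6, are shown because the members differ by so few bases that sequence decides which reads can be told apart. The seed is in capitals.
miR-26a-5p: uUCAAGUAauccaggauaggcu
miR-26b-5p: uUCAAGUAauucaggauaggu
miR-26b-3p: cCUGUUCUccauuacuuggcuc
miR-103-3p: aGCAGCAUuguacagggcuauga
miR-107-3p: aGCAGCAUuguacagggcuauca

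Counted from 1 at the 5′ end, miR-26b-5p differs from miR-26a-5p by C11U and C21U and is 1 base shorter (21 against 22 bases). miR-107-3p differs from miR-103-3p by the single change G22C, the base before the last of 23. Among 1679 mature mouse names, the seed of miR-26a-5p and miR-26b-5p is held by those 2 names only, and likewise the seed of miR-103-3p and miR-107-3p. The seed of miR-26b-3p, the other arm of the miR-26b hairpin, is shared with miR-26a-2-3p, miR-6932-3p and miR-7039-3p.

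Each locus lay in an intron of its host, on the host's strand, in every coding transcript that spans it. In GRCm38, miR-26b-5p lies at chr1:74394324-74394344 and miR-26b-3p at chr1:74394360-74394381, both on the plus strand in intron 4 of Ctdsp1. miR-26a-5p has a locus at chr10:126995543-126995564 in intron 5 of Ctdsp2 and another at chr9:119031811-119031832 in Ctdspl, both on the plus strand. miR-103-3p has a locus at chr11:35782447-35782469 in intron 5 of Pank3 and another at chr2:131288103-131288125 in Pank2, both on the plus strand. miR-107-3p lies at chr19:34820700-34820722 on the minus strand in Pank1.

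The 2 loci of miR-26a-5p, and likewise those of miR-103-3p, give identical mature sequences, and how reads that match both were placed is not given in the sources used here. The chr10 locus held 66.5% to 67.5% of the miR-26a-5p count in all 63 libraries, and the chr2 locus 84.4% to 88.7% of the miR-103-3p count. With a split this even, the loci of a name do not give separate measurements, and their values are given as a sum or side by side.

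Total counts ranged from 616565 to 10819385 per library, and PT cells were the least deeply sequenced, with a median of 1043054. The summed level of each cell type's own marker miRNAs was higher in every one of its libraries than in any library of the other cell types. Taken singly, 3 of the 4 PT marker loci had their highest mean in PT cells, and all marker loci of the other cell types in their own. Levels are CPM, a library's counts rescaled to a common total and corrected by the trimmed mean of M-values (TMM). The correction is over all 63 libraries where cell types are compared, and within a cell type where injury groups are compared. Marker levels are an exception, being on the scale over all 63 libraries throughout. Calls on markers between injury groups come from the fits within a cell type. A locus was called at an FDR of 0.05 in edgeR's quasi-likelihood test, Benjamini-Hochberg adjusted over all loci tested, with a fold change of at least 1.5. These are bulk libraries of sorted cells, in which a change in which cells were sorted and a change in RNA per cell cannot be told apart.

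At R-UUO a PT library and, less so, a Mac, a PDGFR-β+ and an EC library stood apart. The PT R-UUO library of replicate 1 had a summed PT marker level of 16093 CPM, against 34798 to 65003 in the other 3 of its group, and a summed PDGFR-β+ marker level of 25720 CPM, against 3732 to 5725. Member differences from sham in PT cells at R-UUO are therefore also given without it. The Mac R-UUO library of replicate 5 had a summed Mac marker level of 14705 CPM, against 21385 to 27648 in the other 3, and the fewest counts of any Mac library (1106651). The PDGFR-β+ R-UUO library of replicate 1 had 78659 CPM of its own markers, against 118466 to 139041 in the other 3. The EC R-UUO library of replicate 4 had 93098.5 CPM of its own markers, against 133334 to 168234.

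miR-26a-5p was the abundant member. Its 2 loci together took 5.85% ± 1.51 (SD, n = 16) of all counts in Macs, 5.68% ± 0.73 (n = 15) in PDGFR-β+ cells, 5.05% ± 0.55 (n = 16) in ECs and 3.57% ± 0.47 (n = 16) in PT cells. miR-26b-5p took 0.76% of counts in Macs and between 0.26% and 0.37% in the other cell types. The lowest member, miR-26b-3p, had between 19 and 477 counts in a library, so its values carry the most counting error.

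On the TMM scale the summed level of miR-26a-5p in ECs had a lowest, median and highest value of 59839, 76791 and 94197 CPM. In PDGFR-β+ cells these were 50263, 74807 and 91238 CPM. In Macs they were 20911, 29710 and 58256 CPM, and in PT cells 25163, 30273 and 42973 CPM. ECs and PDGFR-β+ cells thus held the upper levels. The log2 difference of ECs minus PDGFR-β+ cells at the chr10 locus did not pass the test (0.09, 95% interval −0.04 to 0.22, adjusted p = 0.30, edgeR), and that of Macs minus PT cells was short of the fold threshold (0.14, 0.01 to 0.27). miR-26b-5p had medians of 4818 CPM in ECs, 4391 in Macs, 3569 in PDGFR-β+ cells and 3184 in PT cells, and miR-26b-3p medians between 23.4 and 38.5 CPM, with overlapping ranges. In tests of pairs of cell types, miR-26b-5p was called higher in ECs than in PT cells, a difference that reversed with library size alone. miR-26b-3p was called lower in PT cells (median 23.4 CPM) than in PDGFR-β+ cells (median 38.5 CPM).

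**Figure D1:**
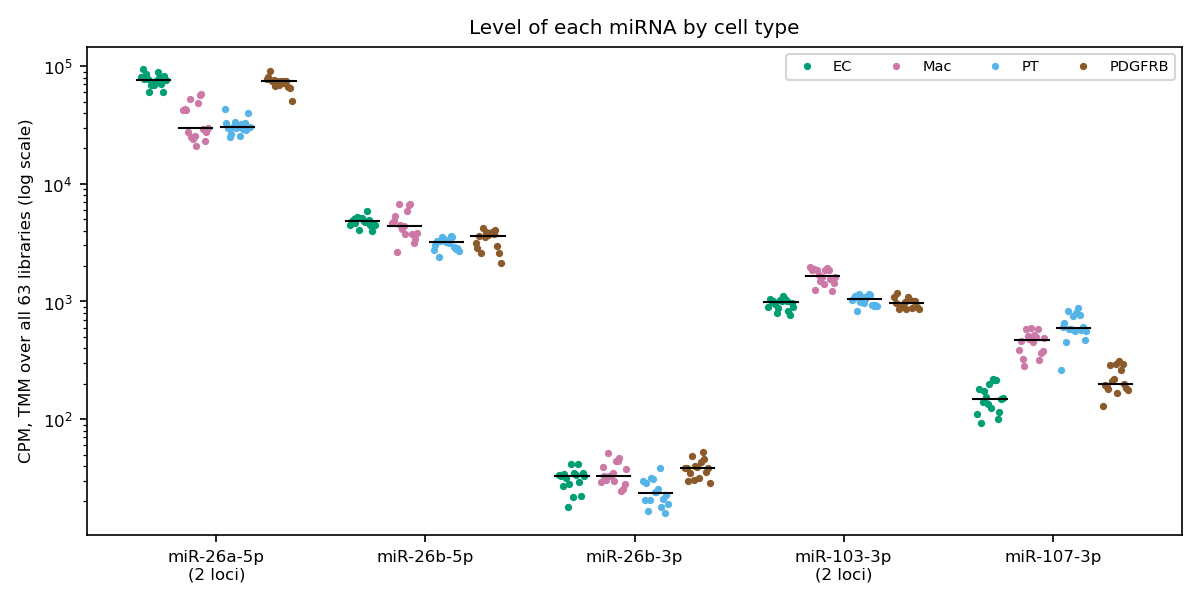
Level of each miRNA by cell type, as scaled CPM over all 63 libraries on a log axis, with 1 point per library and a line at the median. miR-26a-5p lies highest in ECs and PDGFR-β+ cells, and miR-107-3p lies highest in PT cells (median 595 CPM) and lowest in ECs (median 149.7 CPM).

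miR-107-3p had the widest range between cell types. Its level in PT cells had a lowest, median and highest value of 263, 595 and 874 CPM, and in Macs 281, 468 and 593 CPM. In PDGFR-β+ cells these were 129, 199.8 and 312 CPM, and in ECs 92.2, 149.7 and 218 CPM. The ranges of PT cells and ECs did not overlap, and PT cells exceeded ECs 4.02-fold (log2 difference of ECs minus PT cells −2.01 ± 0.10 SE, adjusted p = 4.52e-25, edgeR). The neighbours in this order, PT cells and Macs (−0.46 ± 0.10 SE for Macs minus PT cells) and PDGFR-β+ cells and ECs (−0.49 ± 0.10 SE for ECs minus PDGFR-β+ cells), differed by less than the fold threshold.

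miR-103-3p, which carries the same seed, was ordered otherwise. Its summed level was highest in Macs, with a median of 1639 CPM and a range of 1221 to 1956 CPM. The medians in PT cells, ECs and PDGFR-β+ cells were 1041, 983 and 968 CPM, and their ranges overlapped. Each locus was called higher in Macs than in each of the other 3 cell types. Over the 6 pairs of cell types, 61.3% of all tests were calls. The members gave 20 calls with 7 loci tested in each pair, a share below that background.

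Each cell type was then set against the average of the remaining 3. At these thresholds 55.1% of all tests over the 671 loci and 4 cell types were calls (59.8% in PT cells, 57.2% in Macs, 52.5% in ECs and 51% in PDGFR-β+ cells), and the members gave 14 in 28 tests, a share near the background. miR-107-3p was called in every comparison, higher in PT cells (log2 1.33 ± 0.08 SE) and Macs (0.72 ± 0.08 SE) and lower in ECs (−1.35 ± 0.09 SE) and PDGFR-β+ cells (−0.70 ± 0.09 SE). miR-26a-5p was called at both loci in every cell type, and miR-103-3p at both loci in Macs only, by 0.74 and 0.75. miR-26b-5p and miR-26b-3p were not called in any of the 4.

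The calls on miR-107-3p and miR-103-3p held with libraries scaled by their totals alone, and so did the lower miR-26a-5p of PT cells. The 14 calls against the other cell types became 12 with DESeq2 and with its size factors. They were 10 to 15 with each mouse left out and the scaling computed again, and 10 to 17 over the choices of TMM reference library. The other orders of miR-26a-5p depend on the scaling, since TMM factors were 0.47 to 0.77 in ECs and 1.37 to 2.01 in Macs. Without those factors miR-26a-5p at chr10 was higher in Macs than in the other cell types by 0.29 on the log2 scale, where the TMM value was −0.69.

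Ratios of 2 members within a library need no scaling. Every pair of cell types was compared within mouse for 4 such ratios, and 22 of 24 differences passed a two-sided exact sign-flip permutation test after Benjamini-Hochberg adjustment. The ratio of miR-103-3p to miR-107-3p had a median of 6.24 in ECs, 4.82 in PDGFR-β+ cells, 3.47 in Macs and 1.66 in PT cells. ECs exceeded PT cells in 16 of 16 mice, with a mean log2 difference of 1.90 ± 0.35 (SD, adjusted p = 9.16e-05, exact permutation). By the median, PT cells held the counts nearest to equal. PT R-UUO replicate 1 was at 3.94, and the other 15 PT libraries lay between 1.29 and 2.00. Since these 2 names differ only at base 22, a read that ends before that base fits both. How such reads were counted is not given, and their part in this ratio and in the levels of either name was not tested.

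The ratio of miR-26a-5p to miR-26b-5p had a median of 19.5 in PDGFR-β+ cells, 15.6 in ECs, 9.66 in PT cells and 7.99 in Macs. PDGFR-β+ cells exceeded Macs in 15 of 15 mice (log2 difference of Macs minus PDGFR-β+ cells −1.51 ± 0.24 SD, adjusted p = 9.16e-05, exact permutation). The ratio of the summed miR-26a-5p and miR-26b-5p to the summed miR-103-3p and miR-107-3p had a median of 74.3 in ECs, 63.5 in PDGFR-β+ cells, 21.2 in PT cells and 18.7 in Macs, and here Macs minus PT cells did not pass (log2 difference −0.17 ± 0.55 SD, higher in Macs in 5 of 16 mice, adjusted p = 0.25, exact permutation). That mean joins opposite orders, since Macs were higher in 4 of 4 sham mice (23.1 to 26.6 against 14.8 to 17.8) and in 1 of the 12 others, a split seen after the values were known and not tested. The other difference that did not pass was that of miR-26b-5p to miR-26b-3p between Macs and PT cells.

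miR-26a-5p fell in Macs after obstruction. Its summed level in the sham Mac libraries was 81821, 76846, 93382 and 85563 CPM. At UUO-2 it was 42486, 43638, 44298 and 39215 CPM, and at UUO-7 it was 51549, 40458, 51544 and 45754 CPM. Every obstructed library lay below every sham library, and both time points were well apart from sham.

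Against sham, miR-26a-5p fell in Macs at UUO-2 by 0.99 on the log2 scale at either locus (SE 0.12 and 0.13, adjusted p = 1.24e-05 and 1.64e-05, edgeR), which is 1.99-fold. At UUO-7 it fell by 0.84 at chr10 and 0.83 at chr9 (adjusted p = 2.69e-05 and 3.79e-05, edgeR). Over the 4 cell types, 13.1% of tests against sham were calls at UUO-2 and 35.9% at UUO-7, and the members gave 2 and 7 in 28 tests each. Groups without overlap made up 24.4% of those tests over all loci at UUO-2, 45% at UUO-7 and 33.4% at R-UUO. In Macs alone, 9.19% of loci at UUO-2 and 16.8% at UUO-7 were called lower. The median over all loci in Macs was 0.15 at UUO-2 and 0.22 at UUO-7, opposite in sign to miR-26a-5p. All 4 calls held with each mouse left out and with each of the 16 Mac libraries as the TMM reference.

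After reversal the Mac libraries held 70274, 69423, 65893 and 46729 CPM of miR-26a-5p. All 4 were still below sham, and 3 of 4 lay above every UUO-7 library. The log2 difference was −0.42 ± 0.12 SE from sham and 0.42 ± 0.12 SE from UUO-7 at the chr10 locus (adjusted p = 0.011 and 0.018, edgeR), both short of the fold threshold. Without replicate 5, the lowest of the 4, these were −0.30 and 0.53, still short of it. Between R-UUO and UUO-7 no member was called in any cell type by edgeR or by DESeq2, where 6.92% of tests over all loci were calls, although 7 of 28 tests had an unadjusted p under 0.05 (edgeR).

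miR-26b-5p, the partner with the same seed, was 10563, 9248, 10660 and 9851 CPM in sham Macs. It was 7489, 7488, 7516 and 7068 CPM at UUO-2, and 6559, 5558, 6374 and 5782 CPM at UUO-7. The groups did not overlap. It fell at UUO-7 by 0.73 ± 0.14 SE (adjusted p = 0.00041, edgeR), while the UUO-2 value of −0.45 ± 0.14 SE was short of the fold threshold. At R-UUO it was 7734, 7715, 8172 and 4482 CPM, which gave −0.52 ± 0.14 SE (−0.36 without replicate 5), not called, although 10 of 16 choices of TMM reference library called it.

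miR-26b-3p in Macs had log2 values of −0.34, −0.56 and −0.46 at UUO-2, UUO-7 and R-UUO against sham, none of them called. The value at UUO-7 (SE 0.15, adjusted p = 0.0046, edgeR) missed the fold threshold narrowly and was called with 14 of 16 reference libraries.

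Markers of cell types moved in the same Mac libraries. On the scale over all 63 libraries, the summed level of the 3 Mac markers was between 34894 and 41968 CPM in sham libraries. It was between 24048 and 29714 at UUO-2, and 17978 and 21212 at UUO-7. The TMM factors of that scale were themselves 1.43 to 1.59 in sham Macs and 1.80 to 2.01 at UUO-2. In the fit within Macs, the median log2 difference of these markers from sham was 0.13 at UUO-2 and −0.78 at UUO-7. At UUO-2, 1 of the 3 was called higher and none lower, and at UUO-7 and R-UUO 2 were called lower. The summed PT markers were 3511 to 5217 CPM in sham and 1237 to 2263 at UUO-7, where all 3 loci tested were called lower, and 2 of 3 were called lower at R-UUO. No EC marker was called, and of 5 other-epithelium loci 1 was called higher and 2 lower at UUO-7, and 1 higher at R-UUO.

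Other markers rose in Macs. Of 4 PDGFR-β+ marker loci tested in Macs, 1 was called higher at UUO-2, 2 at UUO-7 and all 4 at R-UUO, where their sum was 5912 to 8586 CPM against 1922 to 4877 in sham, with no overlap. miR-150-5p, listed as a lymphocyte marker, was called higher at each time, at 92.4 to 164 CPM in sham, 235 to 407 at UUO-2, 454 to 744 at UUO-7 and 146 to 615 at R-UUO. It was highest in sorted ECs (2768 to 3652 CPM in sham), so it does not mark lymphocytes alone here. The red blood cell marker locus tested was called higher at UUO-2, although the list's sum reached only 10.5 CPM. The part of all these in the miR-26a-5p and miR-26b-5p values was not tested.

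**Figure D2:**
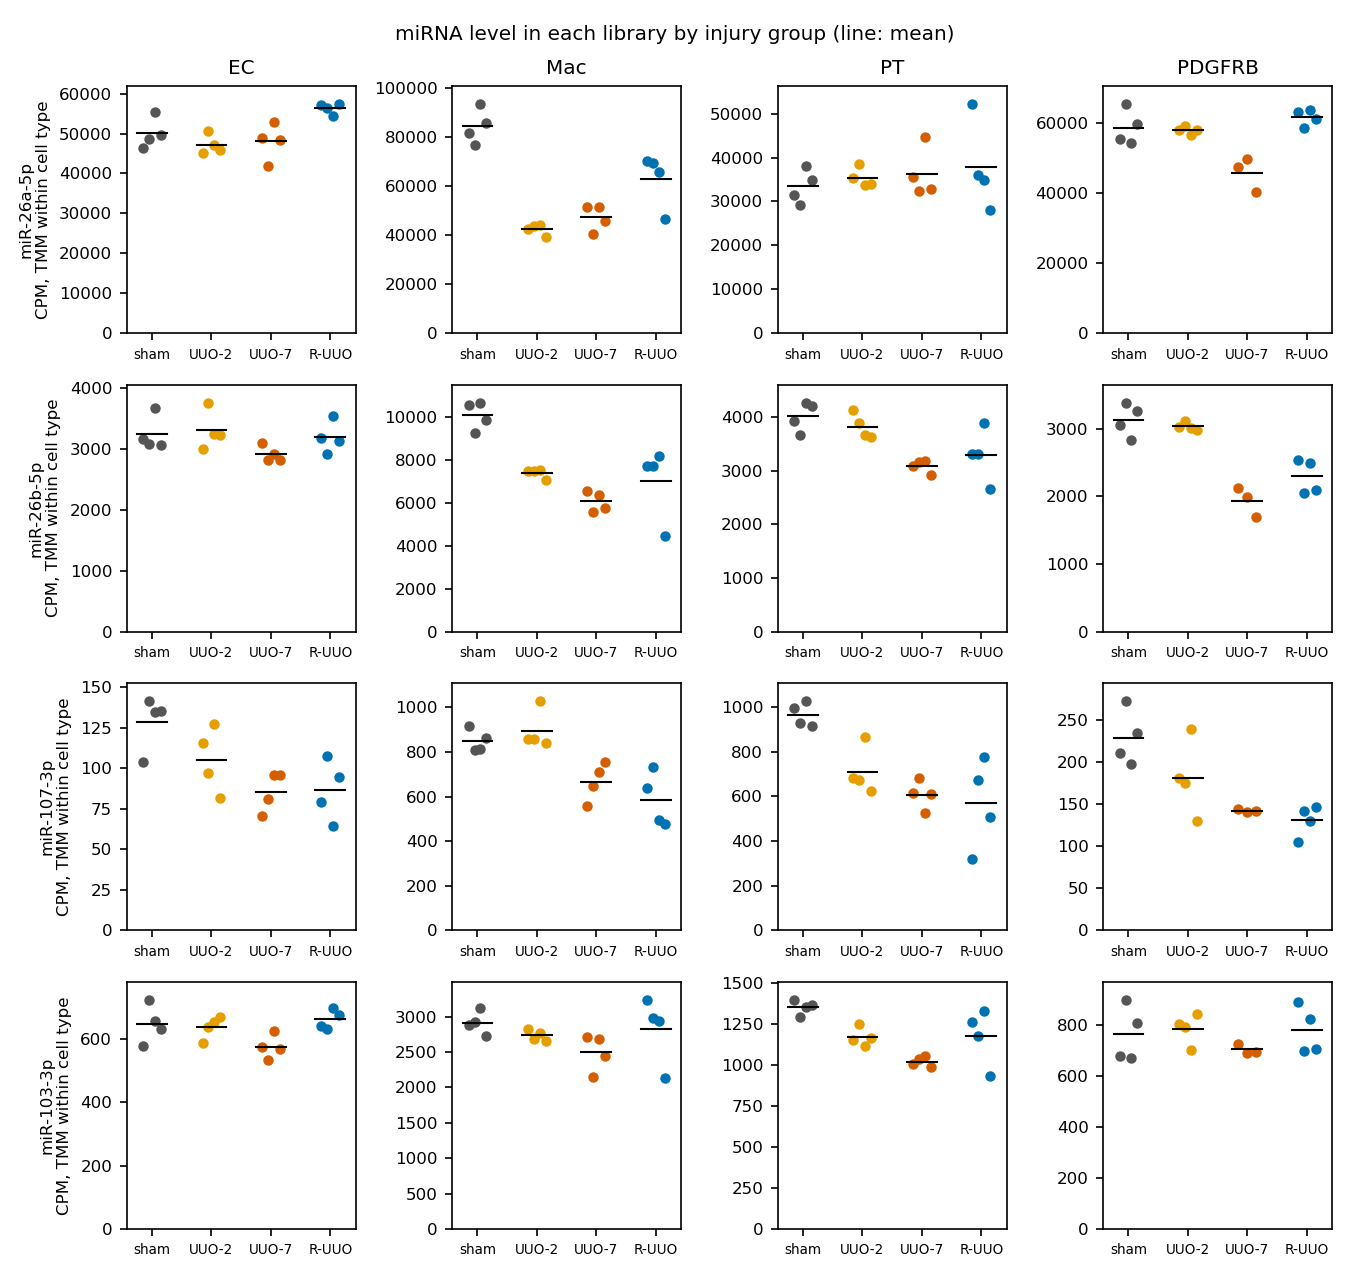
Level of 4 members in every library by injury group, as CPM scaled within each cell type, with 1 point per library and a line at the group mean. In Macs all UUO-2 and UUO-7 libraries of miR-26a-5p lie below the lowest sham library (76846 CPM), and miR-107-3p lies below sham at UUO-7 and R-UUO in all 4 cell types except for 1 EC library at R-UUO.

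The change of miR-26a-5p differed between cell types. In the fit over all 63 libraries, the change in Macs minus the mean change in the other 3 cell types was −1.13 ± 0.15 SE at UUO-2, −0.90 ± 0.15 SE at UUO-7 and −0.61 ± 0.15 SE at R-UUO at the chr10 locus (adjusted p = 1.32e-07, 6.80e-06 and 0.0022, edgeR). Over all loci, 15.4% of such tests were calls at an FDR of 0.05 (no fold threshold), and the members gave 12. The UUO-2 and UUO-7 differences of miR-26a-5p in Macs were called with each of 63 reference libraries, and the R-UUO difference with 54 (chr10) and 53 (chr9).

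In PT cells the difference had the opposite sign, 0.62 ± 0.15 SE at UUO-2 and 0.71 ± 0.15 SE at UUO-7 (chr10), although the change within PT cells was itself 0.09 ± 0.17 SE and 0.13 ± 0.17 SE and not called. With library size alone these became 0.26 and 0.03, and with DESeq2 0.22 and 0.29, none of them called, so the PT differences rest on TMM scaling. The mean it is set against includes Macs. For miR-26b-5p in Macs the difference was −0.55 at UUO-2 and −0.48 at UUO-7, but only 17 and 26 of the 63 reference libraries gave a call, so these rest on the scaling. The first was lost without UUO-2 replicate 4 (−0.50, adjusted p = 0.051, edgeR) and the second without UUO-7 replicate 4, with values between −0.56 and −0.45 over the mice left out in turn.

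In PDGFR-β+ cells the miR-26 member called after injury was miR-26b-5p. It was 3062, 3383, 2836 and 3261 CPM in sham and 3032, 3118, 3012 and 2984 CPM at UUO-2. At UUO-7 it was 2124, 1998 and 1693 CPM, and at R-UUO 2544, 2051, 2492 and 2096 CPM. The UUO-7 and R-UUO libraries overlapped with each other and lay below all sham and UUO-2 libraries.

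miR-26b-5p fell in PDGFR-β+ cells at UUO-7 by 0.69 ± 0.12 SE against sham (adjusted p = 0.00019) and by 0.65 ± 0.12 SE against UUO-2 (adjusted p = 0.00064, edgeR). The latter was the only call of a member between UUO-7 and UUO-2, where 18.7% of tests over the 4 cell types were calls, and it was lost without UUO-7 replicate 5 (−0.56, under the fold threshold). At R-UUO it was −0.45 ± 0.11 SE from sham, under the fold threshold. miR-26a-5p at chr10 was −0.36 ± 0.10 SE from sham at UUO-7 and 0.07 ± 0.09 SE at R-UUO, neither called. The median of all loci in PDGFR-β+ cells was 0.50 at UUO-7 and 0.40 at R-UUO, and 48.2% and 41.7% of loci were called.

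miR-107-3p was lower after injury in several cell types. In PDGFR-β+ cells it was 211, 272, 197 and 235 CPM in sham, 144, 140.4 and 142 CPM at UUO-7, and 105, 142, 129.9 and 147 CPM at R-UUO. In PT cells it was 993, 928, 1024 and 914 CPM in sham, 615, 679, 526 and 609.9 CPM at UUO-7, and 319, 672, 776 and 506 CPM at R-UUO. In neither cell type did these groups overlap with sham.

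In PDGFR-β+ cells miR-107-3p fell by 0.68 ± 0.20 SE at UUO-7 and by 0.81 ± 0.18 SE at R-UUO (adjusted p = 0.0093 and 0.0024, edgeR). With library size alone the calls in PDGFR-β+ cells were lost: miR-107-3p had −0.16 at UUO-7 and −0.51 at R-UUO, and miR-26b-5p −0.18 at UUO-7. In PT cells it fell by 0.67 ± 0.21 SE at UUO-7 and by 0.77 ± 0.21 SE at R-UUO (adjusted p = 0.016 and 0.0085, edgeR), and 43% and 38.8% of loci were called there. The UUO-7 call was lost with no filter (−0.58, adjusted p = 0.088). These 2 at R-UUO were the only calls of members there, where 31.9% of tests over the 4 cell types were calls. Without PT R-UUO replicate 1, the library at 319 CPM, the PT value was −0.57 ± 0.16 SE (adjusted p = 0.012, edgeR) and no longer past the fold threshold.

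The count at R-UUO moved with the scaling. The 2 calls became 7 with DESeq2's size factors and between 2 and 10 over the choices of TMM reference library. Among the values near the threshold, miR-107-3p in Macs at R-UUO (−0.53 ± 0.15 SE) was called with 12 of 16 reference libraries, and was −0.45 without replicate 5. Its levels there were 638, 733, 497 and 478 CPM, against 917, 808, 816 and 862 CPM in sham, with no overlap.

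In ECs miR-107-3p was 104, 141, 134 and 135 CPM in sham and 70.3, 80.9, 95.5 and 95.7 CPM at UUO-7. The groups did not overlap, and it fell by 0.59 ± 0.18 SE (adjusted p = 0.041, edgeR), where 11.5% of loci were called. This call stood at the fold threshold. It held with 4 of 16 reference libraries and with 10 of the 16 mice left out in turn, and was lost without sham replicates 2, 3 or 4 or UUO-7 replicates 2, 3 or 5 (−0.68 to −0.50 over all mice left out). It was lost with DESeq2 too (−0.55), and with no filter (−0.45). At R-UUO the EC levels of 78.9, 107.4, 64.5 and 94.7 CPM overlapped with sham, and the value was −0.57 ± 0.18 SE, not called.

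Marker levels moved in the libraries in which miR-107-3p fell. In PT cells at UUO-7 the summed PT markers were 32311 to 53404 CPM, against 99864 to 130314 in sham, and the summed PDGFR-β+ markers 6932 to 18057 CPM, against 1523 to 3382. There all 3 PT marker loci tested were called lower and 2 of 3 PDGFR-β+ marker loci higher. Markers of other epithelium summed to 8428 to 11189 CPM at UUO-7, against 5519 to 5900 in sham, with 2 of 5 loci called higher, and Mac markers to 136 to 236 CPM, against 73.2 to 106 in sham, with 1 of 2 loci called higher. At R-UUO without replicate 1, the PT markers summed to 34798 to 65003 CPM, the PDGFR-β+ markers to 3732 to 5725 CPM and those of other epithelium to 6762 to 8556 CPM, still without overlap with sham. With all 4 libraries, an EC marker, 1 of 2 Mac marker loci tested and miR-150-5p were also called higher at R-UUO.

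In PDGFR-β+ cells the summed PDGFR-β+ markers were 322345 to 394905 CPM in sham and 129506 to 156586 at UUO-7, but the list did not fall as a whole, since 3 of its 5 loci were called higher and 2 lower, with a median of 2.36 on the log2 scale (2.72 at R-UUO, again 3 higher and 2 lower). All 3 Mac markers were called higher there at UUO-7, with a sum of 273 to 698 CPM against 53.0 to 171 in sham, and both EC markers lower at UUO-7 and R-UUO. Of 3 PT marker loci tested, 2 were called lower at both times, and at R-UUO 2 of 3 Mac markers were called higher and 1 of 5 other-epithelium loci lower. In ECs the summed EC markers overlapped, at 140571 to 162380 CPM in sham and 135882 to 173192 at UUO-7, and all 3 Mac markers were called higher, with a sum of 110.3 to 193 CPM against 20.1 to 60.2. In ECs at R-UUO, 2 of 3 Mac markers and 1 of 4 PDGFR-β+ marker loci tested were called higher than in sham, and 1 of 4 PT marker loci lower. The PDGFR-β+ markers summed to 7521 to 45630.5 CPM there, against 10964.5 to 23978 in sham. The part of these in the miR-107-3p and miR-26b-5p values, and in the ratios below, was not tested.

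**Figure D3:**
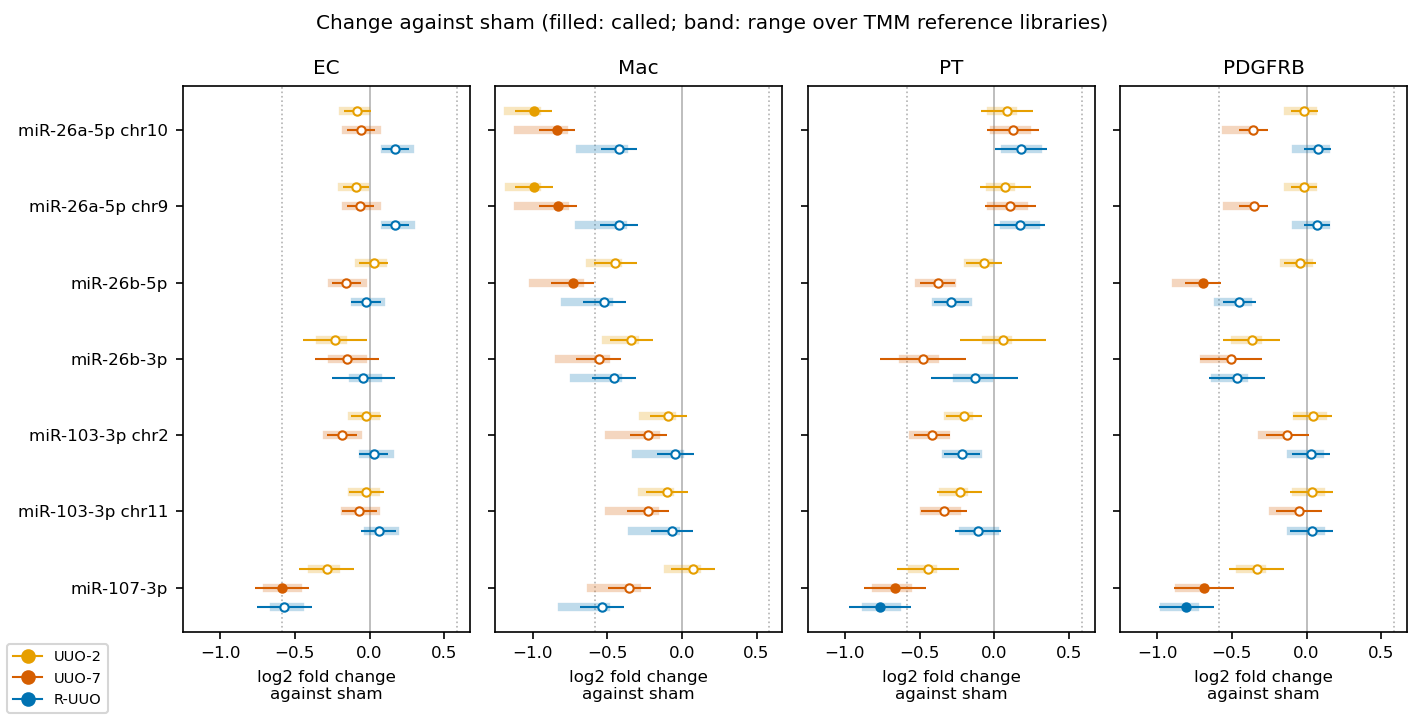
Log2 fold change of each member locus against sham by cell type and injury group, with standard errors. Filled points were called, the pale bands give the range over the choices of TMM reference library, and dotted lines mark a fold change of 1.5. The filled points all lie below 0, and no filled point belongs to miR-103-3p.

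miR-103-3p gave no call in any injury comparison. In PT cells its summed level was 1394, 1292, 1354 and 1364 CPM in sham and 1006, 1033, 1051 and 984 CPM at UUO-7, with no overlap. The log2 value at chr2 was −0.42 ± 0.12 SE (adjusted p = 0.0099, edgeR), under the fold threshold. In PDGFR-β+ cells, where miR-107-3p fell, miR-103-3p at chr2 was −0.13 ± 0.14 SE at UUO-7 and 0.03 ± 0.13 SE at R-UUO, and the 95% interval at UUO-7, −0.40 to 0.15, lay within the fold threshold.

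The ratio of miR-103-3p to miR-107-3p within a library was therefore compared between injury groups. The limit from reads that end before base 22 holds here too. In PDGFR-β+ cells it was 3.22, 3.30, 3.39 and 3.44 in sham, 5.04, 4.92 and 4.88 at UUO-7 and 8.45, 4.93, 6.35 and 4.82 at R-UUO. In ECs it was 5.56, 5.12, 4.87 and 4.68 in sham, 8.19, 6.59, 6.55 and 5.93 at UUO-7 and 8.10, 5.88, 10.8 and 7.15 at R-UUO. The ratio was above every sham library in every UUO-7 and R-UUO library of both cell types.

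In PT cells the ratio was 1.40, 1.39, 1.32 and 1.49 in sham, 1.64, 1.52, 2.00 and 1.61 at UUO-7 and 3.94, 1.75, 1.71 and 1.84 at R-UUO. In Macs it was 3.15, 3.62, 3.83 and 3.16 in sham and 5.07, 4.06, 5.91 and 4.45 at R-UUO. At UUO-7 the Mac ratios of 4.86, 3.31, 3.78 and 3.24 overlapped with sham. At R-UUO, then, the ratio was above sham in every library of all 4 cell types, which come from the same mice and so do not repeat each other independently.

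The mean log2 difference from sham at R-UUO was 0.84 in PDGFR-β+ cells, 0.63 in ECs, 0.62 in PT cells and 0.49 in Macs. Without PT replicate 1 the PT value was 0.33, still with no overlap. The PDGFR-β+ and EC means include the libraries with low own markers, which had the highest ratios of their groups. These were 8.45 in PDGFR-β+ replicate 1, with the others at 4.82 to 6.35, and 10.8 in EC replicate 4, with the others at 5.88 to 8.10. At UUO-2 every group overlapped with sham, with differences of 0.41 in PDGFR-β+ cells, 0.28 in ECs, 0.24 in PT cells and −0.16 in Macs. At UUO-7 the differences were 0.57 in PDGFR-β+ cells, 0.42 in ECs and 0.26 in PT cells. Each of the 4 at R-UUO and these 3 at UUO-7 gave p = 0.0286 in a two-sided exact permutation test, the smallest that 4 against 4 or 3 against 4 mice allow. Over all 64 ratio tests between injury groups 23 gave that value, and after Benjamini-Hochberg adjustment it became 0.0795, so none passed 0.05.

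**Figure D4:**
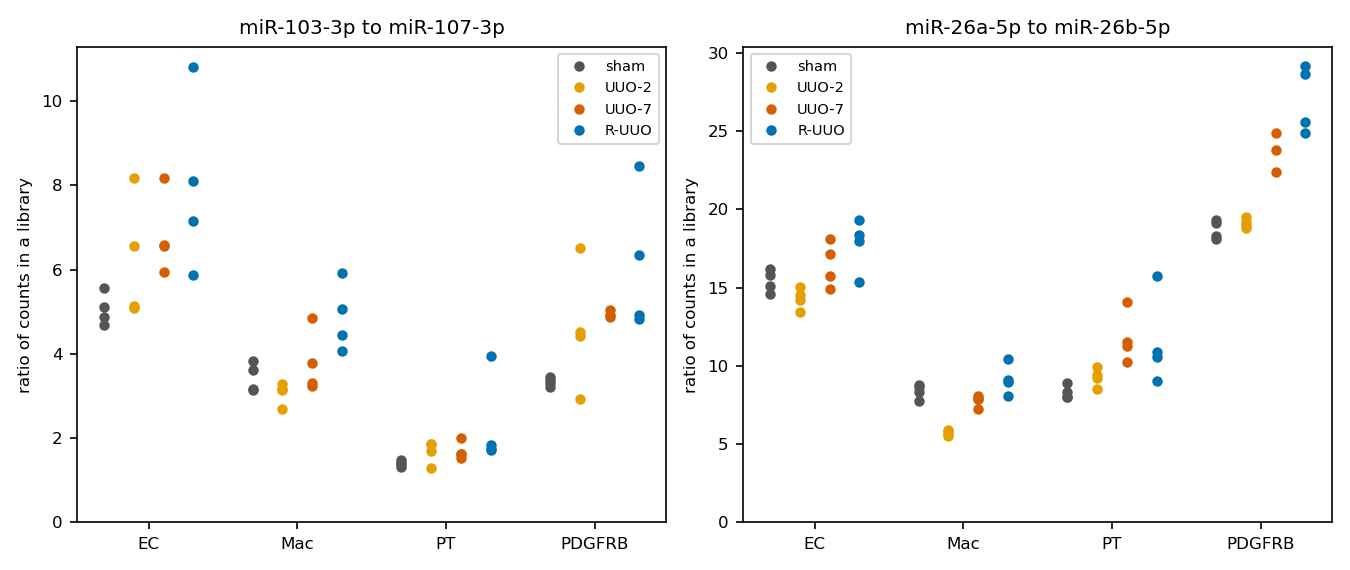
Ratio of counts within a library for miR-103-3p to miR-107-3p (left) and miR-26a-5p to miR-26b-5p (right), by cell type and injury group, with 1 point per library. The miR-103-3p to miR-107-3p ratio at R-UUO lies above sham in every cell type, and the miR-26a-5p to miR-26b-5p ratio in Macs is lowest at UUO-2 (5.55 to 5.89).

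The ratio of miR-26a-5p to miR-26b-5p was below sham in Macs at UUO-2 and above it in PDGFR-β+ and PT cells at the later times. In Macs it was 7.75, 8.31, 8.76 and 8.69 in sham and 5.67, 5.83, 5.89 and 5.55 at UUO-2, with no overlap (log2 difference −0.54, exact permutation p = 0.0286, adjusted p = 0.0795). At the later times the Mac groups overlapped with sham, with log2 differences of −0.11 at UUO-7 and 0.12 at R-UUO, the latter of the same sign as in the other cell types named. In PDGFR-β+ cells it was 18.1, 19.3, 19.1 and 18.3 in sham, 22.4, 24.9 and 23.8 at UUO-7 and 24.9, 28.7, 25.6 and 29.2 at R-UUO. The PDGFR-β+ groups did not overlap with sham either, with log2 differences of 0.34 and 0.53 and the same p values. In PT cells the differences were 0.49 at UUO-7 and 0.44 at R-UUO, the latter 0.28 without replicate 1.

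The ratio of the summed miR-26 to the summed miR-103 and miR-107 members in Macs was 24.3, 23.1, 26.4 and 26.6 in sham, 13.6, 14.4, 13.6 and 13.2 at UUO-2, 17.7, 16.5, 17.1 and 16.1 at UUO-7 and 20.1, 20.8, 21.6 and 19.7 at R-UUO. None of these groups overlapped, and the log2 differences from sham were −0.87, −0.57 and −0.29. In PT cells the same ratio was above sham at each time, by 0.37, 0.58 and 0.53, the last 0.34 without replicate 1. It was also above sham without overlap at R-UUO in ECs (0.21) and PDGFR-β+ cells (0.17), where the earlier groups overlapped with sham. Each of these differences from sham without overlap had the same exact permutation p and adjusted p as above.

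The passenger arms of the same hairpins were scarce. Over all 63 libraries, miR-26a-2-3p had 383 counts, miR-26a-1-3p 97, miR-107-5p 74, miR-103-2-5p 51 and miR-103-1-5p 2, against 8378 for miR-26b-3p. Of these 5 arms only miR-26a-2-3p and miR-107-5p passed the filter of the fit over all libraries. The counts of miR-107-5p came from 29 libraries, with at most 10 in any. They were 38 in PT cells, 19 in PDGFR-β+ cells, 9 in ECs and 8 in Macs. miR-107-5p was called higher in PT cells (log2 2.87, adjusted p = 3.29e-06, edgeR) and lower in ECs (−1.43). It was also called lower in Macs (−1.80), where miR-107-3p was higher. A locus this scarce can pass the filter through the cell type in which it is highest. These calls therefore cannot decide whether the arm follows miR-107-3p. In the injury fits only miR-26a-2-3p passed the filter, in ECs and Macs, and it was not called there by edgeR, so injury was not tested for the other 4 arms.

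The miR-15/16 group carries part of the seed of miR-103-3p and miR-107-3p, shifted by 1 base. All 7 of its loci were tested. miR-16-5p is counted among them at both chr14 and chr3 (−0.62 and −0.63 on the log2 scale in PT cells), so the 7 are not all separate measurements. In PT cells all 7 were called lower than in the other cell types (26.8% of all loci were), where miR-107-3p was higher. In Macs, where miR-103-3p and miR-107-3p were both called higher, 4 of the 7 were called higher and 3 lower (57.2% of all loci were called either way). In ECs and PDGFR-β+ cells miR-107-3p was called lower. There 3 of the 7 were called higher and 0 lower in ECs, and 3 higher and 1 lower in PDGFR-β+ cells (52.5% and 51% of all loci called). With injury, its calls went both ways: in PDGFR-β+ cells at UUO-7, miR-15b-5p was at 2.24 and miR-15a-5p and miR-322-5p were at −1.73 and −2.07 on the log2 scale (adjusted p = 3.30e-06, 6.69e-06 and 6.78e-06, edgeR).

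The miRNAs most like each member were taken by Pearson's r of mean log2 CPM across the 16 groups, over 669 or 670 other loci. This is a description only, since the groups share libraries, mice and scaling factors. For miR-26a-5p they were miR-322-3p (0.93), miR-195a-5p (0.92) and miR-503-3p (0.91). For miR-26b-5p they were miR-29a-3p (0.87), miR-7235-3p (0.84) and miR-7213-3p (0.80), and for miR-26b-3p miR-101b-3p (0.79), miR-181a-2-3p (0.72) and miR-215-5p (0.70). For miR-103-3p they were miR-1839-5p (0.97), miR-3964 (0.95) and miR-5107-3p (0.95), and for miR-107-3p miR-1199-5p (0.90), miR-1947-5p (0.89) and miR-128-3p (0.89).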

How the data were processed

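Small RNA of 4 sorted cell types was sequenced in 63 libraries from 16 mice. Reads had been trimmed by the authors (Trim Galore 0.4.1, cutadapt 1.1) and mapped by ShortStack, which runs Bowtie, to the GRCm38 genome with miRBase loci, and the authors deposited raw counts per locus of a mature miRNA, neither normalized nor pooled. The strand counted and the placement of multi-mapping reads are not given in the sources used here. The library the authors removed was not analysed here.

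Groups, cell types and mice come from the labels. The counts were fitted with edgeR 4.0.16 in R 4.3.3 (filterByExpr, TMM, quasi-likelihood test, prior count 2 for levels) in a fit over all 63 libraries (671 loci) for cell types and differences of change, and in 1 fit per cell type (330 to 477 loci) for injury. A call needed an FDR of 0.05 and, except for differences of change, a fold change of 1.5. Standard errors are the log2 fold change divided by the square root of F. The script was tested on simulated data. Ratios used counts plus 0.5, loci of a name summed, with exact permutation tests and Benjamini-Hochberg adjustment, in Python 3.11.15.

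The members and lists were chosen with earlier results of these data known. The miRNAs named are the members, the other arms, the miR-15/16 group where called, and the 3 most similar loci of each member. Outside that rule, miR-150-5p is named as the one marker of its list, chosen after its values were seen, and miR-6932-3p and miR-7039-3p for a shared seed. Replicate numbers mark cell types of one mouse within an injury group but different mice across injury groups: samples sharing a number in 2 injury groups had a median correlation of deviations between −0.03 and 0.02. Over 93 replicate pairs, chi-square per degree of freedom was at least 9.11, so in none of these pairs was a library a copy of the other. Other pairs of libraries were not compared in this way. Counts limit precision through depth (616565 to 10819385 per library), and reads without molecular identifiers are not independent molecules.

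Alternatives were library size alone, DESeq2 1.42.0 and its size factors, no filter, loci summed, the replicate block, only the groups compared, a pseudocount of 1 and leaving out each mouse. Leaving out a mouse kept the loci and scaling factors. Each library as TMM reference, and leaving out each mouse with the scaling computed again, were added after seeing the data.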

Additional observations from a re-analysis of the deposited data

Results flagged for a closer look

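The change against sham differed between cell types, by the test of the difference itself (edgeR, adjusted over all loci), in 12 cases, a share near the 15.4% over all loci and comparisons. For Macs minus the other 3 cell types the values were −0.55 for miR-26b-5p, −1.13 for miR-26a-5p at chr10 and −1.12 at chr9 at UUO-2. At UUO-7 they were −0.48, −0.90 and −0.89, and at R-UUO miR-26a-5p gave −0.61 at both loci. For PT cells minus the others, miR-26a-5p gave 0.62 (chr10) and 0.61 (chr9) at UUO-2, and 0.71 and 0.69 at UUO-7. The 6 calls on miR-26a-5p in Macs held with library size alone and with DESeq2, and the other 6, on miR-26b-5p and in PT cells, were lost with either.

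In groups of 4 libraries, 1 library stood apart from the other 3 in 7 of 135 groups tested, by a gap of more than 0.829 of the group's range. Chance gives about 1 in 20, so this number is near what chance gives. The gap was 0.841 of the range for miR-107-3p in EC sham replicate 1 (lowest), 0.888 for miR-107-3p in Mac UUO-2 replicate 3 (highest) and 0.940 for miR-26b-5p in Mac UUO-2 replicate 4 (lowest). Mac R-UUO replicate 5 was lowest for miR-26a-5p (0.842) and miR-26b-5p (0.904). PT R-UUO replicate 1 was highest for the ratio of miR-103-3p to miR-107-3p (0.914), and PDGFR-β+ sham replicate 3 was lowest for the ratio of miR-26b-5p to miR-26b-3p (0.880).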

How the results depend on the processing

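With library size alone, miR-26a-5p reversed for Macs against the other 3 cell types (0.29 at both loci), ECs against Macs (−0.18 at both) and Macs against PDGFR-β+ cells (0.013 and 0.012), and miR-26b-5p for ECs against PT cells (−0.18). With loci summed, a name counts once, and the calls were 9 of cell types, 5 of differences of change and 5 at R-UUO against sham. R-UUO against sham gave 2 calls, but 6 with library size alone, 7 with DESeq2's size factors, 7 with DESeq2 and 6 with no filter. The call of UUO-7 against UUO-2 became 0 with library size alone and with no filter. Leaving out each mouse gave 0 to 1 calls for UUO-7 against UUO-2 (0 without UUO-7 replicate 5), 1 to 4 at R-UUO against sham (1 without R-UUO replicate 1, 4 without replicate 2), 6 to 8 at UUO-7 against sham, 11 to 14 differences of change and 11 to 25 ratios between injury groups with p under 0.05 (exact permutation; 14, 11, 13 and 12 without sham replicates 1 to 4, where 3 sham mice remain). With the scaling computed again the ranges were 6 to 12 differences of change, 0 to 1, 0 to 2 for R-UUO against UUO-7 and 2 to 8 at R-UUO against sham. Over the TMM reference libraries they were 7 to 20 differences and 2 to 10 at R-UUO against sham. Both of these were chosen after seeing the data. Apart from what the alternatives change by construction, the cause was not tested. The replicate block was the mouse in the fit over all libraries, where it kept the counts of calls of cell types (14) and of differences (12). In the injury fits it was the replicate number, which joins different mice, so no real pairing was tested there. That block lost miR-107-3p in ECs at UUO-7 (−0.65, adjusted p = 0.053, edgeR) and added miR-26b-3p in Macs at UUO-7 (−0.60, adjusted p = 0.015, edgeR). Depth limits miR-26b-3p most, with as few as 19 counts in a PT library.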
